A study of Mus musculus with 6 samples.

Results

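The genes of the mouse major histocompatibility complex (MHC, called H2 in the mouse) and of peptide loading were compared between kidneys of mice given lipopolysaccharide (LPS) and of Control mice given saline. Members were all gene symbols that start with H2-, together with B2m, Tap1, Tap2, Tapbp, Tapbpl, Erap1, Nlrc5, Ciita and Cd74, which gave 38 of the 17680 genes listed. Each group held 3 libraries, LPS replicates 1 to 3 and Control replicates 1 to 3, from the kidneys of wild-type C57BL/6 mice aged 6 to 8 weeks. LPS, a component of the bacterial outer membrane that is used to model septic kidney injury, or phosphate-buffered saline (PBS) was injected intraperitoneally. RNA was taken 24 h later, on day 1, as total RNA of the kidney without cell sorting. The labels give no LPS dose and do not say whether each library came from its own mouse, although the design text counts 3 mice a group, so the p-values measure the spread between these libraries. In such bulk RNA, more cells of a type and more RNA per cell cannot be told apart.

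Classical class I molecules, in C57BL/6 mice the products of H2-K1 and H2-D1, present peptides from the cytosol to CD8 T cells on nearly every cell of the body. The heavy chain pairs with beta-2 microglobulin (B2m), and peptides cut by the proteasome are pumped into the endoplasmic reticulum by the transporter Tap1-Tap2, trimmed by Erap1 and loaded with the help of tapasin (Tapbp). Non-classical class I genes of the Q, T and M regions encode related molecules with narrower tasks. Class II molecules are found mainly on dendritic cells, macrophages and B cells, take peptides from endosomes with the help of the invariant chain Cd74 and the exchange factor H2-DM, and are read by CD4 T cells. Nlrc5 and Ciita are the transactivators of class I and class II genes.

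The LPS libraries held 31313181 to 33454344 counts and the Control libraries 29097558 to 31071170, and no 2 replicates agreed within sampling noise (chi-square of at least 9.90 per degree of freedom). LPS replicate 2 stood apart through seminal vesicle transcripts, at 3.66% of its counts against at most 0.00457% in each other library, none of which is a member. Among the Control libraries, replicate 1 held more B cell RNA, with a summed level of 14.3 CPM over the B cell list against 2.67 and 2.10 CPM in replicates 2 and 3. CPM are counts scaled to an equal library total with TMM factors. All 9 genes that define kidney segments were detected. Of these 7 were lower in LPS kidneys, beside 24.8% of all genes tested, and Aqp2 and Umod did not pass the test. The lower genes included Slc34a1 and Lrp2 of the proximal tubule and Nphs1 of the podocyte. Members took 0.694% to 0.800% of all counts in the LPS libraries and 0.186% to 0.241% in the Control libraries.

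Of the 38 members, 32 had counts enough to be tested in a fit across all 14219 such genes (quasi-likelihood test of edgeR, p adjusted by Benjamini-Hochberg, threshold 0.05). Of these 22 rose and 3 fell, and 7 did not pass. Over all genes tested, 25.7% rose and 24.8% fell (50.5% in all), and the median log2 fold change (LPS minus Control) was 0.01 against 1.17 over the 32. H2-Oa, H2-Ob, H2-Q1 and H2-Q9 reached the count filter in every library of 1 group only, so a difference was built into their being tested. At least 2-fold increases were found for 20 members, against 8.24% of all genes tested, and at least 2-fold decreases for 2, against 9.62%. In 23 members every LPS library lay above every Control library and in 3 below, 26 of 32, whereas this held for 30.5% and 29.8% of all genes tested (60.2% in all). The remaining 6 members, H2-Eb2, H2-M1, H2-M2, H2-M5, H2-M9 and H2-M10.5, had between 0 and 9 counts in each library and were not tested.

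**Figure D1:**
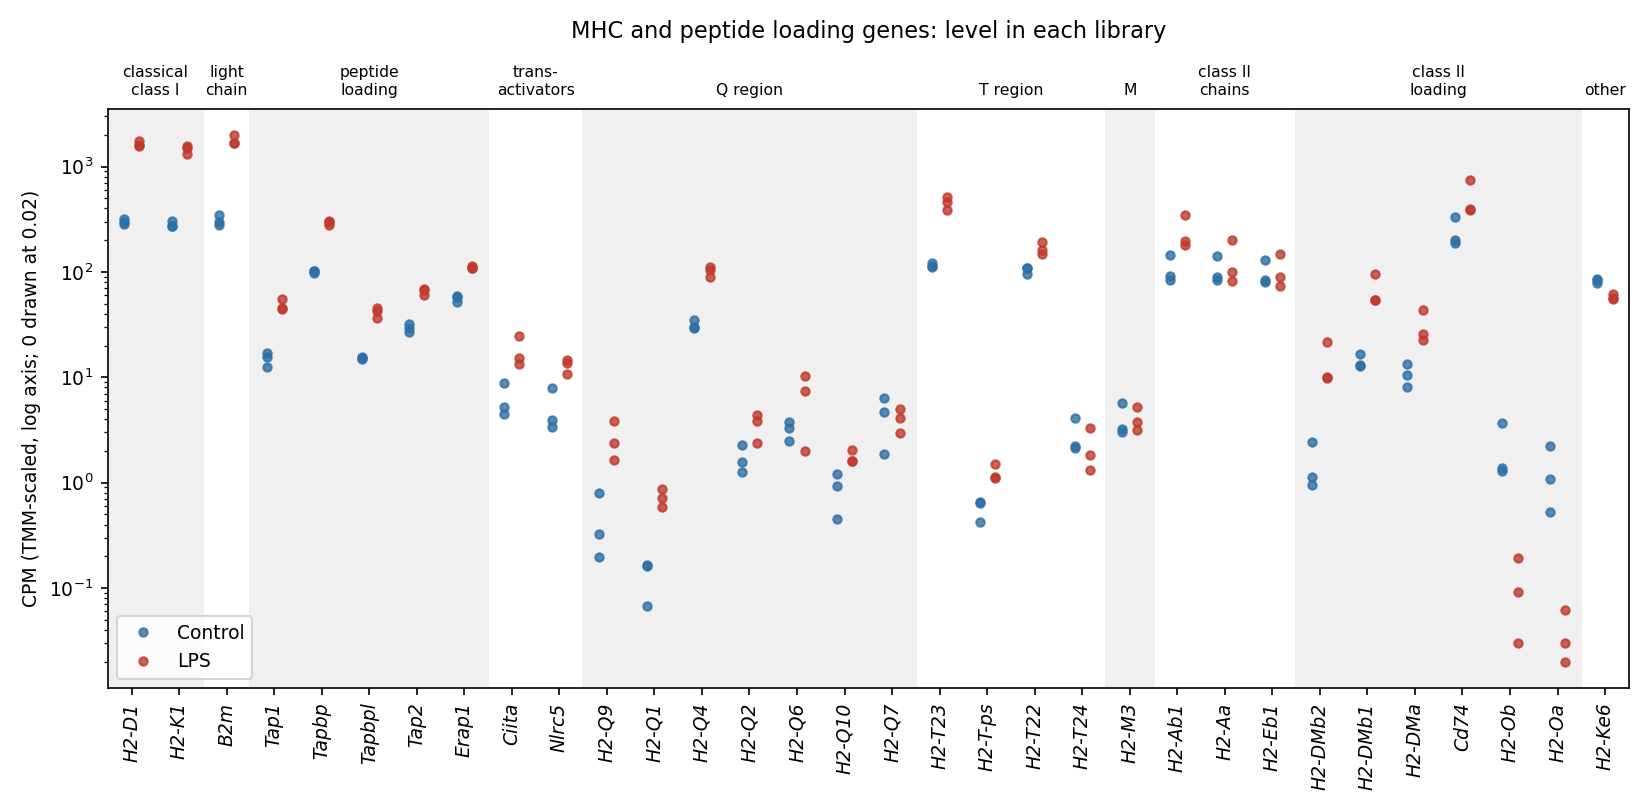
Level of each tested gene in each library, as TMM-scaled CPM on a log axis, with 3 Control (blue) and 3 LPS (red) points per gene and genes grouped by class. The points of H2-D1, H2-K1, B2m and all peptide loading genes are separate between the groups, and those of H2-Aa and H2-Eb1 overlap. H2-Oa and H2-Ob lie near the bottom of the axis in LPS libraries, where the count of 0 of H2-Oa in LPS replicate 3 is drawn.

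The classical class I genes and the light chain rose by 5.13-fold to 5.81-fold and were in LPS kidneys the 3 members with the highest level per length. That level was 2058 ± 197 FPKM for B2m, 942 ± 41.8 FPKM for H2-D1 and 682 ± 59.1 FPKM for H2-K1 (SD, n = 3 libraries), where FPKM are the deposited values scaled by gene length and summed counts. In Control kidneys it was 357 ± 47.9, 173 ± 12.8 and 134 ± 11.2 FPKM, and Cd74, at 172 ± 60.5 FPKM, was not separate from H2-D1 and H2-K1. H2-K1 stood at 1486, 1321 and 1575 CPM in LPS replicates 1, 2 and 3 and at 304.9, 275.2 and 274.1 CPM in Control replicates 1, 2 and 3. Its log2 fold change was 2.36 ± 0.10 (SE), with an adjusted p of 2.61e-07 (edgeR). H2-D1 stood at 1608, 1579 and 1737 CPM in the LPS libraries and at 316.6, 285.5 and 297.4 CPM in the Control libraries. Every LPS library lay more than 4 times above every Control library for both genes, and the log2 fold change of H2-D1 was 2.45 ± 0.08 (adjusted p = 1.21e-07, edgeR). B2m, which has no close copy, stood at 1659, 1973 and 1687 CPM against 343.7, 294.8 and 277.3 CPM. It rose by a log2 fold change of 2.54 ± 0.11 (adjusted p = 4.47e-07, edgeR), and the groups did not overlap.

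The promoters of these genes are shown because heavy chain and light chain genes rose together. Sequences were read from a RefSeq promoter table (mouse, GRCm38.p6), which held a window of 250 bases before to 50 bases after the start site for 29 of the 38 members. The stretches of H2-K1 (chr17:34000335-34000478, minus strand), H2-D1 (chr17:35262903-35263046, plus strand) and H2-Q4 (chr17:35379423-35379566, plus strand) begin 20 bases before a match to the NF-kB consensus. Those of B2m (chr2:122147543-122147686, plus strand) and H2-T23 (chr17:36032702-36032845, minus strand) are the 144 bases before the start site. H2-K1 has 2 start sites in the table, of which the downstream site was used. All run 5′ to 3′ in the direction of transcription. Capitals mark matches, on either strand, to the NF-kB consensus, to the interferon-stimulated response element (ISRE) GAAANNGAAA, to the class I interferon element GAANTGAAA, to the X2 or cAMP response core TGACG and to the Y box core CCAAT. The gamma-activated site TTCNNNGAA was searched as well.
H2-K1: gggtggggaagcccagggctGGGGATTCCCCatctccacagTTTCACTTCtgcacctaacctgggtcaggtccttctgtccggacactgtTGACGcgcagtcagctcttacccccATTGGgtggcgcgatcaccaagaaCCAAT
H2-D1: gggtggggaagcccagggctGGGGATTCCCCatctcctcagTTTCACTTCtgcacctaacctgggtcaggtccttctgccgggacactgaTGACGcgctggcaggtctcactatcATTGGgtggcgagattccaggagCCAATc
H2-Q4: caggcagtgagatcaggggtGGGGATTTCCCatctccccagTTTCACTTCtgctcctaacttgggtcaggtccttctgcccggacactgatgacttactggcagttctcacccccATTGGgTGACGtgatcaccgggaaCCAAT
B2m: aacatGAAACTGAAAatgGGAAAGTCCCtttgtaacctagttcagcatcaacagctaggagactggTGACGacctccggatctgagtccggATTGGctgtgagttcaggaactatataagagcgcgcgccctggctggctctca
H2-T23: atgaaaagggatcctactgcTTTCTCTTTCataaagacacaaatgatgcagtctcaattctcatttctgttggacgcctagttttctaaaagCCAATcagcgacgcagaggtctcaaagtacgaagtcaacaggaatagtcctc

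Over the 144 bases shown, H2-K1 and H2-D1 were identical at 121 positions (84.0%) and H2-K1 and H2-Q4 at 117 (81.2%), without gaps. In H2-K1 and H2-D1 the capitals come in the same order, NF-kB, interferon element, X2 core and Y box core, whereas in H2-Q4 the X2 core letters stand after the first Y box core. B2m holds an ISRE match before its NF-kB match, and H2-T23 holds an ISRE match and a single Y box core. Of the 29 members with a window, 26 held a Y box core, against 37.4% of all 32851 promoter windows. The X2 core was held by 11 members (20.8% of all windows), the NF-kB consensus by 10 (11.2%), the ISRE by 4 (3.44%), the class I interferon element by 7 (1.83%) and the gamma-activated site by 2 (8.30%). Of the 14 members with a window that rose, 13 held the Y box core, 6 the X2 core and 5 the NF-kB consensus. The ISRE was held by 4 of these 14, the interferon element by 3 and the gamma-activated site by 1. H2-M3, H2-Q6 and H2-Q7, which did not pass, each held the Y box core, the NF-kB consensus and the interferon element. The interferon element was added after the windows had been seen, members of a region share sequence by descent, and a match describes letters and no bound factor.

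Per length, the class I heavy chain transcripts stood at 492.9, 439.9 and 436.7 FPKM in the Control libraries and at 2064, 1980 and 2238 FPKM in the LPS libraries, summed over 19 genes. The classical genes made up 79.3%, 76.7% and 76.6% of that sum in LPS replicates 1, 2 and 3 and 67.8%, 65.9% and 68.2% in the Control libraries. Shares of the T region genes lay between 16.8% and 20.3% in LPS and between 25.7% and 28.8% in Control libraries. Neither these shares nor those of the Q and M region genes overlapped between the groups. The FPKM ratio of B2m to the heavy chains was 0.988 ± 0.149 in LPS and 0.781 ± 0.0507 in Control libraries (SD, n = 3 each), and these ranges also did not overlap. That ratio depends on the gene lengths used, for instance 858 bases for B2m and 2134 bases for H2-K1, and is no ratio of proteins.

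**Figure D2:**
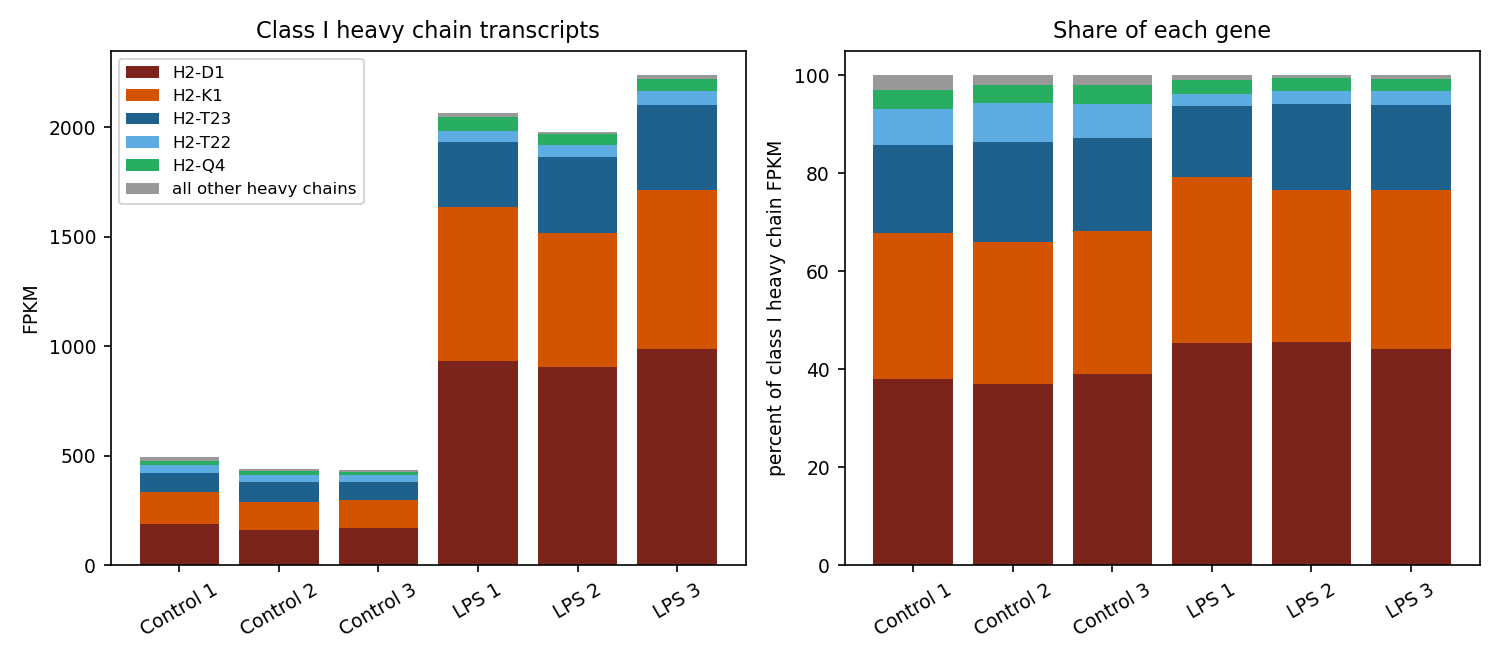
Class I heavy chain transcripts in each library, as stacked FPKM (left) and as percent of the summed FPKM (right), by gene. The summed bars lie between 436.7 and 492.9 FPKM in Control and between 1980 and 2238 FPKM in LPS libraries, and H2-D1 and H2-K1 fill the largest parts of each bar.

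All 5 peptide loading genes rose, by 1.99-fold to 3.22-fold. Tap1, a subunit of the peptide pump, stood at 55.0, 45.4 and 44.5 CPM in the LPS libraries and at 16.9, 12.5 and 15.6 CPM in the Control libraries, a log2 fold change of 1.69 ± 0.13 (adjusted p = 1.08e-05, edgeR). Its partner Tap2 stood at 60.5, 66.6 and 68.5 CPM against 29.3, 32.3 and 27.2 CPM and rose by 1.14 ± 0.09 on the log2 scale. The FPKM ratio of Tap1 to Tap2 was 0.791, 0.592 and 0.564 in LPS and 0.501, 0.336 and 0.500 in Control libraries. Tapbp, which encodes tapasin and bridges the pump to empty class I molecules, was the most abundant of the 5 per length, with 106 ± 3.20 FPKM after LPS and 36.6 ± 1.73 FPKM in Control kidneys. It stood at 280.1, 302.2 and 295.3 CPM in the LPS libraries and 102.8, 101.6 and 96.8 CPM in the Control libraries. Its log2 fold change was 1.54 ± 0.08 (adjusted p = 8.42e-07, edgeR). Tapbpl, a tapasin-like editor of bound peptides, had 36.5, 42.7 and 45.7 CPM after LPS and 15.2, 15.5 and 14.9 CPM in the Control libraries, an increase of 1.45 ± 0.10. Erap1, the peptide-trimming protease, had 114.5, 109.3 and 109.0 CPM after LPS and 58.98, 51.2 and 57.5 CPM in the Control libraries, an increase of 0.99 ± 0.08. The groups did not overlap for any of the 5 genes.

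Both transactivators rose, from low levels. Nlrc5 stood at 14.5, 10.7 and 13.5 CPM in the LPS libraries and at 7.89, 3.39 and 3.95 CPM in the Control libraries, a log2 fold change of 1.35 ± 0.29 (adjusted p = 0.0045, edgeR). Ciita stood at 15.3, 13.3 and 24.5 CPM against 8.89, 4.46 and 5.20 CPM, a log2 fold change of 1.52 ± 0.30 (adjusted p = 0.00257, edgeR). Control replicate 1 was the highest Control library for both, and LPS replicate 3 the highest LPS library for Ciita.

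Other genes of the class I route rose in most cases. Of 11 genes of peptide supply 10 rose, beside 25.7% over all genes tested, and Canx, a chaperone of new heavy chains, did not pass. The immunoproteasome subunit Psmb8 had 105.5, 123.1 and 145.1 CPM after LPS and 16.7, 14.7 and 15.2 CPM without it, a log2 fold change of 3.01 ± 0.13. Psmb10 rose by 1.99 ± 0.17 and Psme1, a subunit of the proteasome activator, by 1.43 ± 0.10. Of 12 regulators of class I genes 11 rose in edgeR, beside the same 25.7%, and Jak2 did not pass. In DESeq2 and in limma-voom 10 of the 12 passed. Irf1, an interferon-induced transcription factor, had 52.5 ± 6.74 CPM after LPS and 19.4 ± 1.23 CPM without it, Irf9 rose by 1.23 ± 0.09 and the interferon gamma receptor chain Ifngr1 by 0.79 ± 0.08. Of the 7 subunits of the complex that binds the shared class I and class II promoter boxes (Rfx5, Rfxap, Rfxank, Nfya, Nfyb, Nfyc and Creb1) 0 passed in edgeR, DESeq2 or limma-voom, and 3 had an unadjusted p under 0.05 in edgeR. The lowest adjusted p were those of Nfyc (-0.20 ± 0.08, 0.0539), Nfyb (0.22 ± 0.09, 0.0717) and Rfx5 (0.24 ± 0.10, 0.0772). Nfyc passed without LPS replicate 1 (adjusted p = 0.0318) and with genes of a mean CPM of at least 1 (0.0475), and Nfyb in limma on log2(FPKM + 1) with genes of a mean FPKM of at least 1 (0.0473).

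**Figure D3:**
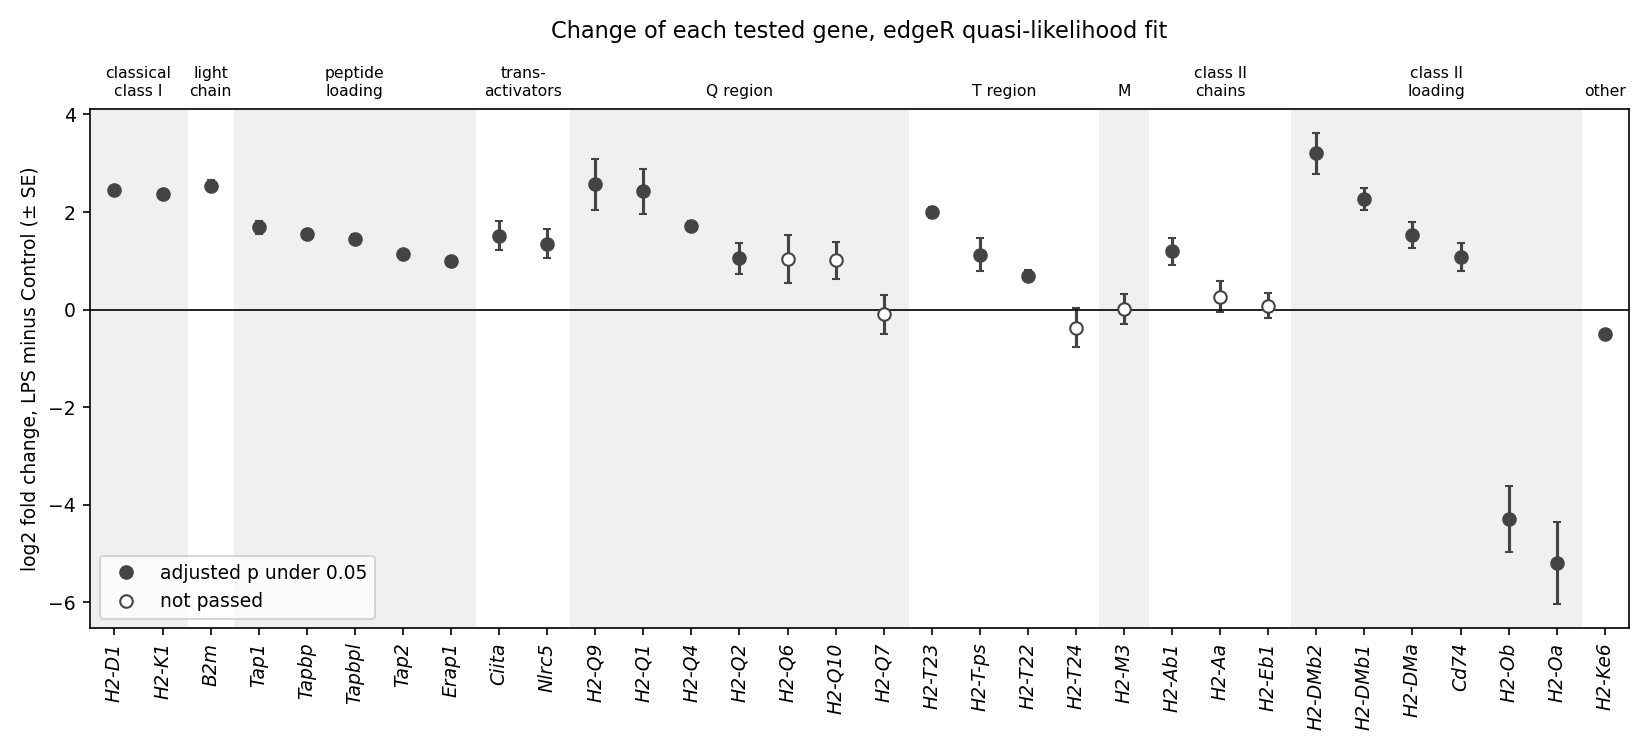
Log2 fold change (LPS minus Control) of each tested gene with its SE from the edgeR fit of 3 against 3 libraries. Filled points passed an adjusted p of 0.05 and open points did not. The classical class I, light chain, peptide loading and transactivator genes lie above 0, and the class II loading genes run from 3.20 for H2-DMb2 to -5.20 for H2-Oa.

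Of the 7 Q region genes 4 rose, beside 25.7% over all genes tested, and 3 did not pass. Among the 4, H2-Q1 and H2-Q9 reached the count filter in every LPS library but not in every Control library. A difference was thus built into their being tested. H2-Q4 had the highest level per length, 56.8 ± 6.42 FPKM after LPS and 17.5 ± 2.11 FPKM without it. H2-Q4, which encodes a molecule known as Qb-1, stood at 111.6, 90.3 and 104.9 CPM in the LPS libraries and at 34.7, 29.04 and 29.9 CPM in the Control libraries. Its log2 fold change was 1.71 ± 0.11 (adjusted p = 2.63e-06, edgeR). H2-Q1 and H2-Q2 rose at low levels. H2-Q1 had 19, 29 and 22 counts in LPS and 2, 5 and 5 counts in Control libraries, a log2 fold change of 2.42 ± 0.47. H2-Q2 had 2.37, 4.36 and 3.86 CPM after LPS and 1.57, 1.27 and 2.27 CPM without it, a log2 fold change of 1.05 ± 0.33 (adjusted p = 0.0243, edgeR). The call of H2-Q2 depended on single libraries: its adjusted p was 0.0803 without LPS replicate 2, 0.0661 without LPS replicate 3, 0.0638 without Control replicate 1 and 0.0885 without Control replicate 2, and ran from 0.00688 to 0.0885 over the alternatives. H2-Q10, in the mouse a secreted molecule of the liver, had 67, 53 and 50 counts in LPS and 28, 14 and 37 counts in Control libraries. Its groups did not overlap, as for 30.5% of all genes with LPS above Control, and its log2 fold change of 1.01 ± 0.38 missed the threshold (adjusted p = 0.0521, edgeR). DESeq2 (0.0449), limma-voom (0.0361) and the fit without Control replicate 3 (0.0372) were among the 8 alternatives under which it passed, in a range from 0.0201 to 0.147.

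H2-Q6, H2-Q7 and H2-Q9 are close copies from the Qa-2 group, and reads can be split between them. Of the windows of 100 bases along the longest coding transcript of H2-Q7 in GENCODE M21, 16.4% occurred letter for letter in a transcript of another gene, with H2-Q6 the closest, and H2-Q9 has no entry there. H2-Q6 had 333, 66 and 231 counts in LPS and 99, 77 and 114 in Control libraries, so LPS replicate 2 lay below every Control library. H2-Q7 had 133, 99 and 155 counts in LPS and 189, 144 and 57 in Control libraries, and neither gene passed (log2 fold changes of 1.04 ± 0.49 and -0.09 ± 0.40). H2-Q6 passed in DESeq2 (adjusted p = 0.0356) and without LPS replicate 2 (1.48, adjusted p = 0.00122, edgeR). H2-Q9 had 125, 55 and 74 counts in LPS and 24, 6 and 10 in Control libraries and passed alone, with 2.57 ± 0.53 (adjusted p = 0.0032, edgeR), or 3.31 without Control replicate 1. With the 3 copies summed to 1 gene, a fit chosen after seeing the data, the level was 18.2, 6.62 and 14.9 CPM in LPS and 10.4, 7.39 and 5.95 CPM in Control libraries. The sum had a log2 fold change of 0.74 ± 0.34 and did not pass (adjusted p = 0.104, edgeR).

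In the T region H2-T23 and H2-T22, which held the largest T region shares of the heavy chain FPKM, both rose, to different extents. H2-T23 encodes Qa-1, which carries leader peptides of other class I molecules to inhibitory receptors of natural killer cells. It stood at 387.5, 459.8 and 519.0 CPM in the LPS libraries and at 112.9, 120.4 and 110.1 CPM in the Control libraries, a log2 fold change of 1.99 ± 0.11 (adjusted p = 1.65e-06, edgeR). H2-T22, a ligand of some gamma-delta T cells, stood at 149.4, 161.9 and 193.8 CPM against 108.2, 108.1 and 94.9 CPM. Its log2 fold change was 0.70 ± 0.11 (adjusted p = 0.000793, edgeR), and the groups did not overlap. The FPKM ratio of H2-T23 to H2-T22 was 6.07, 6.64 and 6.26 in LPS and 2.44, 2.60 and 2.71 in Control libraries. An exact two-sided permutation test of that ratio gave p = 0.1, the smallest that 3 against 3 libraries allow.

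H2-T-ps, a low-count gene named as a pseudogene, rose by 1.12 ± 0.34, with 37, 50 and 34 counts in LPS and 19, 20 and 13 in Control libraries. Its call (adjusted p = 0.0221) was lost without LPS replicate 2 (0.0884) or Control replicate 3 (0.0837), the only such losses among its alternatives. H2-T24 did not pass, at 60, 110 and 41 counts in LPS and 122, 68 and 65 in Control libraries. For H2-T22, 14.2% of its windows of 100 bases occurred in other genes, H2-T10 the closest. For H2-T23 this share was 7.3%, for H2-D1 4.6% and for H2-K1 0.0%.

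Of 6 M region genes a single one, H2-M3, was tested, and it did not pass. H2-M3 presents peptides that begin with N-formyl methionine, as bacterial and mitochondrial proteins do. It stood at 5.25, 3.13 and 3.73 CPM in the LPS libraries and at 5.75, 3.03 and 3.22 CPM in the Control libraries, a log2 fold change of 0.01 ± 0.31 (adjusted p = 0.977, edgeR). The values of both groups covered nearly the same range, and the sign of the change turned with unscaled library sizes and with 3 of the 6 libraries left out in turn. The other 5 M region genes had at most 5 counts in any library.

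Class II genes moved in different directions: of 9 tested, 5 rose, 2 fell and 2 did not pass, beside 25.7% higher and 24.8% lower over all genes tested. The 2 that fell, H2-Oa and H2-Ob, reached the count filter in the Control libraries alone. H2-Aa and H2-Ab1 encode the alpha and beta chain of the same class II molecule, I-A. H2-Ab1 stood at 181.2, 195.2 and 349.5 CPM in LPS replicates 1, 2 and 3 and at 143.5, 90.7 and 83.0 CPM in Control replicates 1, 2 and 3. It rose by 1.19 ± 0.28 (adjusted p = 0.00627, edgeR), and all 3 LPS libraries lay above all Control libraries. H2-Aa stood at 81.5, 100.8 and 198.9 CPM against 142.2, 90.3 and 84.1 CPM. The groups overlapped, with LPS replicate 1 below every Control library, and the gene did not pass (0.27 ± 0.32, adjusted p = 0.514, edgeR, range 0.188 to 0.801 over the alternatives). H2-Eb1, the beta chain of I-E, a molecule that C57BL/6 mice do not display for want of its alpha chain, stood at 74.1, 90.04 and 146.6 CPM against 129.3, 84.1 and 80.8 CPM (0.08 ± 0.26, not passed). Without LPS replicate 3, the highest library for all 3 genes, the log2 fold change was -0.21 for H2-Aa and -0.25 for H2-Eb1, and H2-Ab1 was still called, at 0.83 (adjusted p = 0.0139, edgeR, range 0.00296 to 0.0324 over the alternatives).

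Relative to its alpha chain, the beta chain of I-A was higher in each LPS library than in any Control library. The FPKM ratio of H2-Ab1 to H2-Aa was 2.10, 1.83 and 1.66 in the LPS libraries and 0.954, 0.9503 and 0.933 in the Control libraries. The ratio of H2-Ab1 to H2-Eb1 was 3.42, 3.03 and 3.335 in LPS and 1.55, 1.51 and 1.44 in Control libraries. Both ratios varied little among Control libraries, including Control replicate 1, whose class II levels were the highest of the 3. Of 8 such ratios computed between members, 7 gave p = 0.1 in an exact two-sided permutation test on their log2 values, the smallest the design allows, which is 0.114 after Benjamini-Hochberg adjustment. The ratio of H2-D1 to H2-K1 gave p = 0.2, with 1.38 ± 0.0740 in LPS and 1.29 ± 0.0336 in Control libraries (SD, n = 3 each, exact permutation test).

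The genes that load class II molecules split between the H2-DM genes and Cd74, which rose, and the H2-O genes, which fell. Cd74, the invariant chain that guards the empty groove, stood at 389.9, 393.4 and 750.4 CPM in LPS and at 332.2, 200.5 and 189.8 CPM in Control libraries, a log2 fold change of 1.09 ± 0.29 (adjusted p = 0.0121, edgeR). That call was lost without Control replicate 2 (0.97, adjusted p = 0.0548), its range being 0.00461 to 0.0548. H2-DMa and H2-DMb1 encode the chains of H2-DM, which exchanges peptides on class II molecules. H2-DMa stood at 22.8, 25.6 and 43.5 CPM against 13.3, 8.11 and 10.4 CPM, a log2 fold change of 1.53 ± 0.26. Its FPKM imply a gene length of 8325 bases against 3448 exon bases in GENCODE M21, so its level per length is uncertain and its ratio to H2-DMb1, one of the 8 computed, is not read here. H2-DMb1 stood at 53.7, 54.5 and 94.9 CPM against 16.5, 13.2 and 12.8 CPM, a log2 fold change of 2.26 ± 0.22 (adjusted p = 4.83e-05, edgeR). H2-DMb2, a second beta chain gene, stood at 10.05, 9.90 and 21.6 CPM against 2.41, 1.14 and 0.954 CPM and had the largest increase of the 32 tested members, 3.20 ± 0.42. LPS replicate 3 was highest for each of these genes, and the groups did not overlap. H2-DMb1 and H2-DMb2 shared 13.7% and 12.9% of their windows of 100 bases with each other, and summed to 1 gene, a fit chosen after seeing the data, they rose by 2.38 ± 0.24.

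H2-Oa and H2-Ob encode the chains of H2-O, an inhibitor of H2-DM that is known mainly from B cells and some dendritic cells. H2-Oa had 2, 1 and 0 counts in the LPS libraries and 67, 33 and 16 counts in the Control libraries. The ratio of Control to LPS, over the summed counts and scaled by library size, was 41.3 (exact 95% binomial interval 13.8 to 203, for counting error only), and the gene fell with an adjusted p of 0.000888 (edgeR). H2-Ob had 3, 1 and 6 counts in LPS and 111, 42 and 39 in Control libraries and fell by 4.30 ± 0.67 on the log2 scale (adjusted p = 0.000725, edgeR). Control replicate 1 was highest for both, but each Control library lay above each LPS library. Without Control replicate 1 the log2 fold changes were -4.53 for H2-Oa and -3.62 for H2-Ob, both called. They were -6.03 for H2-Oa without LPS replicate 1 and -5.03 for H2-Ob without LPS replicate 3, values that rest on at most 4 LPS counts. H2-Eb2, an untested class II chain, had 1, 2 and 3 counts in LPS and 9, 2 and 5 in Control libraries.

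**Figure D4:**
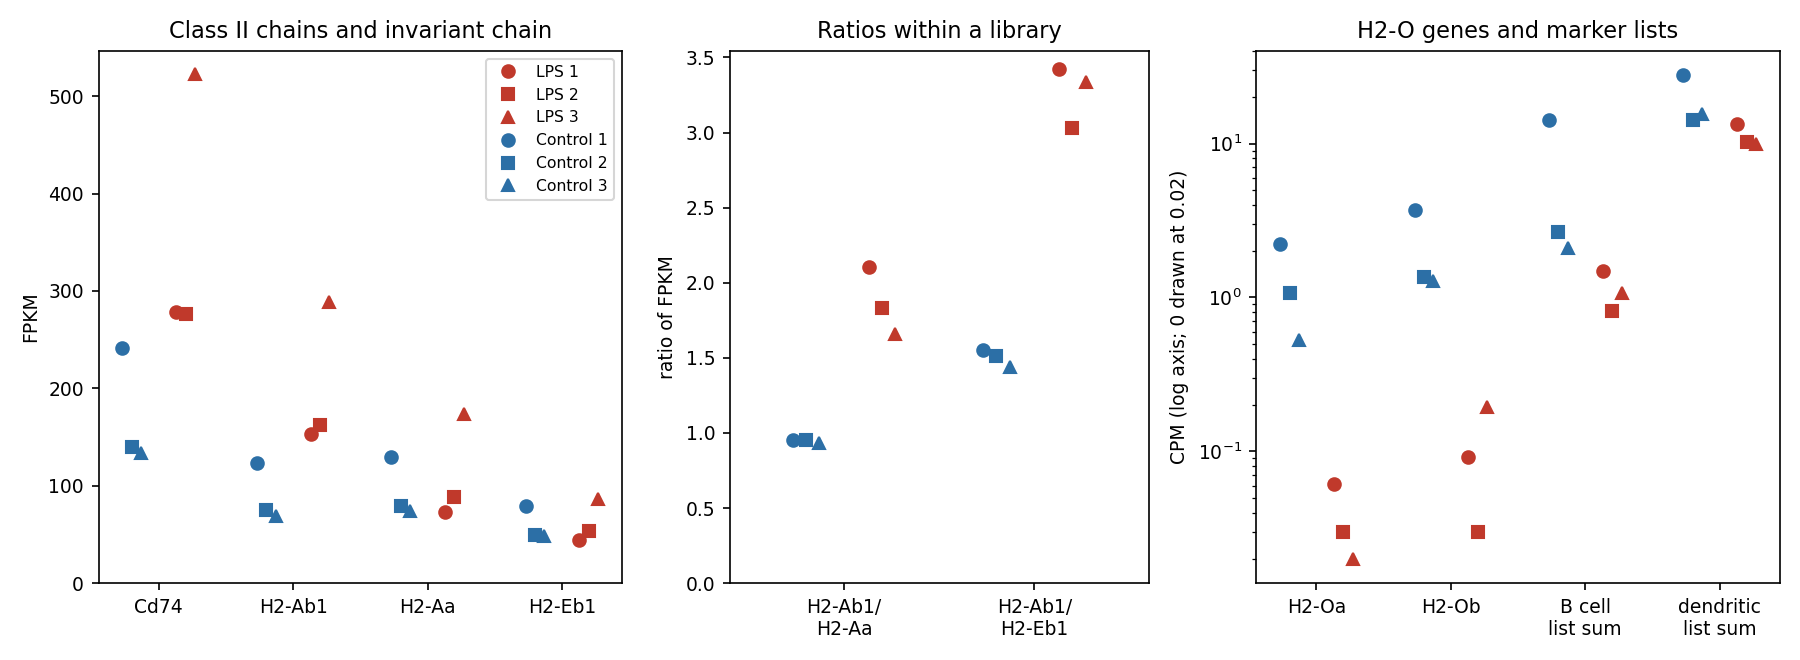
Left, FPKM of Cd74 and the class II chains in each library. Middle, FPKM ratios within a library, between 0.933 and 0.954 in Control and between 1.66 and 2.10 in LPS libraries for H2-Ab1 to H2-Aa. Right, CPM of H2-Oa and H2-Ob and the summed CPM of the B cell and dendritic cell marker lists on a log axis, where Control replicate 1 (blue circle) is the highest point of each column.

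Markers of the cells that carry class II molecules did not all move in the same direction, and their part in the results was not tested. The B cell list (7 genes) summed to 0.812 to 1.47 CPM in LPS and 2.10 to 14.3 CPM in Control libraries. Its only tested gene, Cd79b, fell by 1.35 ± 0.49 on the log2 scale (adjusted p = 0.0436, edgeR) and lost the call without Control replicate 1 (-0.66, adjusted p = 0.199) and in 7 other alternatives, the range of its adjusted p being 0.0179 to 0.199. Ms4a1 had 1, 1 and 0 counts in LPS and 62, 4 and 1 in Control libraries, and Cd79a 4, 0 and 0 against 74, 13 and 8. The dendritic cell list (10 genes) summed to 9.98 to 13.3 CPM in LPS and 14.2 to 27.9 CPM in Control libraries. Of its 9 tested genes 6 were lower and 1, Ccr7, higher, beside 24.8% lower and 25.7% higher over all genes tested. Of these 7 genes, Cd209a, Xcr1, Clec9a, Flt3 and Ccr7 reached the count filter in every library of 1 group only, so their calls carry the same limit as those of H2-Oa and H2-Ob. Xcr1 had 0, 1 and 0 counts against 51, 19 and 17, Clec9a 1, 2 and 0 against 63, 11 and 34, and Flt3 5, 7 and 8 against 35, 23 and 26. Itgax had 48, 27 and 16 counts against 128, 40 and 76. Zbtb46, at 228, 206 and 186 counts against 257, 203 and 198, did not pass. Cd209a, a lectin, had 0 counts in each LPS library and 149, 63 and 56 in the Control libraries.

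Of 10 macrophage genes 3 were higher and 3 lower, shares near the 25.7% and 24.8% of all genes tested, with a summed level of 168.5 to 200.1 CPM in LPS and 149.4 to 186.2 CPM in Control libraries. Cd68 rose by 2.88 ± 0.18 and the complement chain C1qb by 0.76 ± 0.16, and the growth factor receptor Csf1r fell by 0.85 ± 0.14 on the log2 scale. The monocyte list (6 genes) summed to 232.6 to 296.1 CPM in LPS and 55.5 to 94.8 CPM in Control libraries. Plac8 rose by 4.01 ± 0.14 and Ly6c2 by 1.73 ± 0.38, while the chemokine receptor Ccr2 fell by 1.52 ± 0.24 on the log2 scale. Plac8 carried the monocyte sum, with 188.0, 228.3 and 261.0 CPM in the LPS libraries and 15.01, 13.51 and 13.39 CPM in the Control libraries. The other 5 genes summed to 44.55, 44.86 and 35.12 CPM in LPS and to 79.78, 42 and 42.46 CPM in Control libraries. Without Plac8 the sums of the groups thus overlapped. Of the lists of other cells, all 6 tested neutrophil genes were higher, among them S100a8 (5.04 ± 0.22) and S100a9 (4.93 ± 0.20). All 5 tested genes of the T and NK cell list were lower, among them Cd3d, Cd3g and Cd8a, but none of its NK cell genes was tested. In each of these 2 lists 3 of the genes reached the count filter in every library of 1 group only. Of 6 endothelial genes 2 were lower, Ehd3 and Tek, and 4 did not pass, beside 24.8% lower over all genes tested.

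Stretches of 3 class II promoters are shown because these genes did not pass (H2-Aa), rose (H2-DMb1) and fell (H2-Oa). They are the 144 bases before the start site, H2-Aa at chr17:34287824-34287967, minus strand, H2-DMb1 at chr17:34153047-34153190, plus strand and H2-Oa at chr17:34092235-34092378, plus strand, RefSeq GRCm38.p6, with capitals as before.
H2-Aa: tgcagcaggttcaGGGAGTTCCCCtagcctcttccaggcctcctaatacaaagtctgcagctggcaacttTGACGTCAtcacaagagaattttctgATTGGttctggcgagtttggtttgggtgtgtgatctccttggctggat
H2-DMb1: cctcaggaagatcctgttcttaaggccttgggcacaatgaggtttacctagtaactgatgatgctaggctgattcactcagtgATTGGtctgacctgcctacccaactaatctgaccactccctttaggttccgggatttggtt
H2-Oa: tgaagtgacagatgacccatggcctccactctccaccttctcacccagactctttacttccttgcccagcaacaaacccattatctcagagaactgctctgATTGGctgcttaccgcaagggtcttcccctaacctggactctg

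Each of the 3 stretches holds a Y box core, and H2-Aa also holds the X2 core on both strands and an NF-kB match. H2-DMb1 and H2-Oa, which changed in opposite directions, each held the Y box core alone among the motifs searched.

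Genes that act beside class II in endosomes or at the cell surface mostly rose. Of 8 processing genes 6 rose, the ubiquitin ligase Marchf8 fell and Marchf1 did not pass, beside 25.7% higher and 24.8% lower over all genes tested. The cathepsin Ctsl rose by 2.39 ± 0.11, from 488 ± 35.9 to 2559 ± 299 CPM, Ctsb by 1.20 ± 0.10 and the endosomal protein Cd63 by 0.63 ± 0.09. Of 5 tested costimulatory genes 4 rose, beside 25.7% over all genes tested, and Cd86 did not pass. Cd274, which encodes PD-L1, rose by 1.22 ± 0.18, Cd40 by 1.89 ± 0.31 and Icosl by 1.09 ± 0.18. The other, Cd80, reached the count filter in the LPS libraries alone, so a difference was built into its being tested.

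Of 5 tested class I-like genes outside the complex, 2 rose, 2 fell and 1 did not pass, beside 25.7% higher and 24.8% lower over all genes tested. Cd1d1, which presents lipids, had 478, 985 and 779 counts in LPS and 35, 107 and 126 in Control libraries and rose by 2.98 ± 0.40. Hfe, a regulator of iron uptake, rose by 1.79 ± 0.07 and Azgp1 fell by 1.53 ± 0.28 on the log2 scale. Of the ligands of the receptor NKG2D only Raet1e was tested, through the LPS libraries alone, and its increase (1.42 ± 0.45, adjusted p = 0.0264, edgeR) was lost in 7 alternatives, among them DESeq2 (0.111), in a range from 0.00899 to 0.115.

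H2-Ke6 is a member by its symbol alone, since it encodes the hydroxysteroid dehydrogenase Hsd17b8 and no MHC molecule. It stood at 55.2, 56.3 and 62.3 CPM in LPS and at 77.8, 85.2 and 84.4 CPM in Control libraries and fell by 0.51 ± 0.08 on the log2 scale (adjusted p = 0.000639, edgeR). A readthrough gene, Gm20427, covers 86.4% of its exon bases in GENCODE M21, so its reads cannot be assigned with certainty.

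Other members overlap genes on the opposite strand, and the strand setting of the counting is not given in the sources used here. The shares of exon bases covered were 29.4% for H2-T22, 24.9% for Tapbp, 22.8% for H2-Oa, 19.1% for H2-Q4, 18.5% for Tap2, 11.5% for Erap1 and 10.4% for H2-DMa, and 3.9% for Tap1, whose neighbour Psmb9 starts beside it. H2-K1, H2-D1, B2m, H2-Aa, H2-Ab1 and H2-Ob had 0.0%.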

How the data were processed

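The bulk RNA-seq libraries of mouse kidney (LPS and Control, 3 each) were compared. For each library the authors deposited 2 tables by gene symbol, one of raw counts and one of FPKM. The tools SAMtools, HTSeq, HISAT2, R 3.2.0 and DESeq2 appear, without roles, per the submitters' processing notes. Which genome build, annotation, strand setting and read length were used is not given in the sources used here. Of 106080 deposited FPKM values, 106077 equalled the count over a whole-number length and the sum of counts (relative tolerance 1e-06).

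Groups came from sample titles. The raw counts entered edgeR 4.0.16 under R 4.3.3 (filterByExpr, minimum count 10 and minimum total 15; TMM factors; quasi-likelihood test, two-sided; Benjamini-Hochberg adjustment over 14219 genes, threshold 0.05), after a check on simulated data. Each SE is the absolute log2 fold change over the root of the F statistic. Values after ± are SE for log2 fold changes and SD over 3 libraries for levels. Every member past the filter was named, and of each other list the 3 genes with the smallest p, which for the lists of other cells, kidney segments and seminal vesicle are partly given as counts only, plus presenting-cell markers and genes picked after their values were seen (Canx, Jak2, Marchf1, Marchf8, Cd80, Cd86, Ccr7, Aqp2, Umod). Members and lists were chosen with earlier results of these data known. Alternatives were RLE factors, library sizes, other filters, DESeq2 1.42.0, limma-voom and limma 3.58.1 on log2(FPKM + 1) or log2(FPKM + 0.1), a replicate block, each library left out in turn, and a fit without 26 genes of LPS replicate 2. Promoters came from RefSeq GRCm38.p6 and transcripts from GENCODE M21.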

Additional observations from a re-analysis of the deposited data

How the results depend on the processing

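The 22 higher and 3 lower members became 19 to 24 higher and 1 to 3 lower over 17 alternatives and 1, chosen after seeing the data, with library sizes summed without the members. With a mean FPKM of at least 1 the lower count was 1, since H2-Oa and H2-Ob were not tested there. In that fit the class II genes had 0 lower and the Q region 2 higher genes, and with a mean CPM of at least 1, where H2-Oa was not tested, the class II genes had 1 lower. Fits on log2(FPKM + 1) shrink low genes: H2-Oa had -0.95, H2-Ob -0.71, H2-Q1 0.26 and H2-Q9 1.05 there, all still called. The sign turned for genes that did not pass. Leaving out 1 library gave -0.21 to 0.54 for H2-Aa, below 0 without LPS replicate 3. It gave -0.25 to 0.33 for H2-Eb1, below 0 without LPS replicate 3, Control replicate 2 or Control replicate 3. It gave -0.22 to 0.37 for H2-M3, below 0 without LPS replicate 1, Control replicate 2 or Control replicate 3, and -0.001 with unscaled library sizes. It gave -0.45 to 0.29 for H2-Q7, above 0 without LPS replicate 2 or Control replicate 1. H2-Q7 had 0.040 in limma-voom, 0.027 in limma on log2(FPKM + 0.1) and 0.74 summed with its copies. The causes were not tested. The median over all genes stayed between -0.01 and 0.02 under all 17.

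Same-numbered libraries did not deviate together (correlations of 0.05, -0.05 and 0.00), so the numbers were not taken as pairs. With the replicate block 23 members were higher and 3 lower, H2-Q10 the added call (adjusted p = 0.0467), and over all genes 3414 were higher and 3331 lower. Leaving out 1 library gave 3077 to 3666 higher and 3010 to 3490 lower genes and 20 to 22 higher members. H2-Eb2 and 5 M region genes had too few counts to be tested.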
